A study of Mus musculus with 39 samples.

Results

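Cytochrome P450 enzymes of the lung outside the Cyp1 family were examined in mice that ate permethrin or isoniazid. The 9 genes are Cyp2b10, Cyp2f2, Cyp2s1, Cyp4b1, Cyp2j6, Cyp2d22, Cyp2e1, Cyp2a5 and Por. They were chosen by name as foreign-compound P450s of lung together with the reductase that serves them, with earlier results of these data known. Of these, 7 genes have 11 probe sets (groups of oligonucleotides on an Affymetrix array that report a transcript) annotated to their symbol alone, and the brightest of these stood for each gene. Cyp2a5 was read through the 1 probe set that it shares with Cyp2a4, written here as Cyp2a4/Cyp2a5, because their transcripts are near-identical and the array does not separate them. Por has no probe set named for it in the annotation used and was not analysed here. The 8 readouts are part of 18194 features, where a feature is a gene with its own probe set or this shared probe set, and all 8 were among the 13021 features bright enough to be tested.

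The animals were 39 females of Crlj:CD1(ICR), an outbred strain, with 1 array of lung RNA per animal in 8 groups. Animals ate powdered diet with permethrin at 5000 ppm, permethrin at 10000 ppm, isoniazid at 2500 ppm or neither, for 7 days (age 11 weeks) or 14 days (age 12 weeks), so duration and age rise together and cannot be told apart. There were 4 animals at permethrin 10000 ppm for 14 days and 5 in every other group, few enough to limit the precision of every value. Permethrin is a pyrethroid insecticide. Isoniazid, a drug against tuberculosis, serves as the positive control for tumours according to the labels. The comparisons address how each diet changes lung expression, and whether dose and duration matter. Levels are log2 array signals after quantile normalization, a step that gives all arrays the same distribution. Errors of levels are standard deviations (SD) over animals, and errors of differences are standard errors (SE) of a limma fit over all 39 arrays, with Benjamini-Hochberg adjusted p-values computed across the 13021 features.

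P450 enzymes are haem proteins of the endoplasmic reticulum that insert an oxygen atom into their substrates, and they receive the electrons for this from the reductase encoded by Por. In mouse lung much of this activity sits in club cells, the secretory cells of the airway lining, which makes these cells targets of compounds that P450s turn into reactive products. Cyp2b10 is the classical liver target of the nuclear receptor CAR, which pyrethroids are known to activate in rodent liver, and isoniazid is known to raise the CYP2E1 protein in rodent liver.

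Among the 8 readouts, the Cyp2a4/Cyp2a5 signal is the result that the animals' values turn on, so the promoters of its 2 genes are shown first. Cyp2a5 encodes the mouse coumarin 7-hydroxylase, which also acts on nicotine and nitrosamines, and Cyp2a4 encodes a steroid 15-alpha-hydroxylase. The 250 bases before each start site, from RefSeq (build GRCm38.p6, plus strand), lie at chr7:26306942-26307191 for Cyp2a4 and at chr7:26835089-26835338 for Cyp2a5. They are printed 5′ to 3′, with capitals at the bases where the promoters differ.
Cyp2a4: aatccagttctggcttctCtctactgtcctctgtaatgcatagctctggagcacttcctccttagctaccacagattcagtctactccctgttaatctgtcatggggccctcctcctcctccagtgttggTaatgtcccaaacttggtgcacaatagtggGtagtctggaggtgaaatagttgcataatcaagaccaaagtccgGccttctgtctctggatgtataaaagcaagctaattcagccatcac
Cyp2a5: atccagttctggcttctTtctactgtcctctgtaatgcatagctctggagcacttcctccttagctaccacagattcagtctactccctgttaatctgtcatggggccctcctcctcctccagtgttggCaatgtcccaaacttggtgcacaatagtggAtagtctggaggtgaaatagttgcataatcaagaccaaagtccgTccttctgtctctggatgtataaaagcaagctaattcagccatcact

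Over 249 aligned bases the promoters shared 245 (98.4%), with 4 mismatches and no gap. Each held 1 TATAAA. TGANNNNGC is a loose pattern for the core of the antioxidant response element bound by NRF2. It leaves the middle bases free, and stricter forms were not searched. Each promoter held 2 matches to TGANNNNGC on the minus strand. On the printed strand these read gcataatca and gctaattca. Motifs were searched on both strands, and 35.2% of 32851 RefSeq promoters cut to this length hold TGANNNNGC and 12.4% hold TATAAA, so these matches are common. Among the other genes with a promoter entry, Cyp2b10 and Cyp4b1 each held 1 TGANNNNGC, Cyp2e1 held 1 TATAAA, and Cyp2j6 held 1 CACGTG (the E-box of clock factors, in 6.0% of promoters). None of the promoters searched held TTANGTAA, the D-box of the clock-driven factors Tef, Dbp and Hlf, which 2.1% of promoters hold. Looser forms of the D-box were not searched, so this does not show that such a site is absent. A match says only that the letters occur, not that a factor binds there. The RefSeq tables held entries for 9 symbols, Cyp2a4 included, and not for Cyp2d22.

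By RefSeq gene order, Cyp2s1, Cyp2b10, Cyp2a5 and Cyp2f2 belong to a gene cluster on chromosome 7. From Cyp2s1 to Cyp2f2 this cluster holds 17 protein-coding genes, 12 of them P450s. Of the readouts of these 4 genes, that of Cyp2a4/Cyp2a5 passed the test in 1 or more of the 14 comparisons and those of Cyp2s1, Cyp2b10 and Cyp2f2 in none.

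Alveolar type 2 cell markers and alveolar type 1 cell markers had group means of 10.53 to 10.65 and of 10.50 to 10.59 on the log2 scale, so the labelled tissue carried its defining transcripts in every group. Scores of cells and tissues that differ more from animal to animal were less even: the mean of the adipose markers ran from 4.28 to 6.69 in control animals at 14 days. RNA quality was read from Gapdh control probe sets, whose 3' signal exceeds the 5' signal more in degraded RNA. This log2 ratio exceeded 0.7 on 7 arrays, which came from all 4 diets at 14 days. Correlations between arrays ran from 0.862 to 0.945 and no arrays were identical. In a whole lung, a lower signal from fewer cells of a type and from less RNA per cell cannot be told apart.

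Against the control of the same time, 1 of the 8 readouts passed an adjusted p of 0.05 in 1 of 6 comparisons: Cyp2a4/Cyp2a5 rose at permethrin 10000 ppm at 14 days. In that comparison 0.223% of all features passed. No readout passed at permethrin 5000 ppm (0.0922% of all features at 7 days, 0.131% at 14 days), permethrin 10000 ppm at 7 days (0.238%) or isoniazid (0.0461% at 7 days, 0.0307% at 14 days). At an unadjusted p under 0.05 there were 1, 2 and 2 readouts at 7 days for permethrin 5000 ppm, permethrin 10000 ppm and isoniazid, beside 1.99%, 3.16% and 6.53% of all features. At 14 days there were 2, 2 and 0, beside 5.23%, 6.04% and 6.03%. With both times averaged, Cyp2a4/Cyp2a5 rose at permethrin 10000 ppm (0.507% of all features passed), and no readout passed at permethrin 5000 ppm (0.223%) or isoniazid (0.392%). Unadjusted, 2, 3 and 3 readouts passed for permethrin 5000 ppm, permethrin 10000 ppm and isoniazid, beside 3.74%, 6.53% and 9.15% of all features. Between the permethrin doses 1 readout did so (3.36% of all features) and between the control groups 1 (13.9%). For the changes from 7 to 14 days it was 0 for permethrin 5000 ppm (2.85%), permethrin 10000 ppm (2.25%) and isoniazid (2.95%). The median difference over the 8 readouts was 0.09, 0.11 and 0.19 at 7 days and 0.08, 0.12 and 0.06 at 14 days for permethrin 5000 ppm, permethrin 10000 ppm and isoniazid, beside medians of all features between -0.01 and 0.02. All treatments of a given time share that time's control animals, so their differences are not independent of each other.

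**Figure D1:**
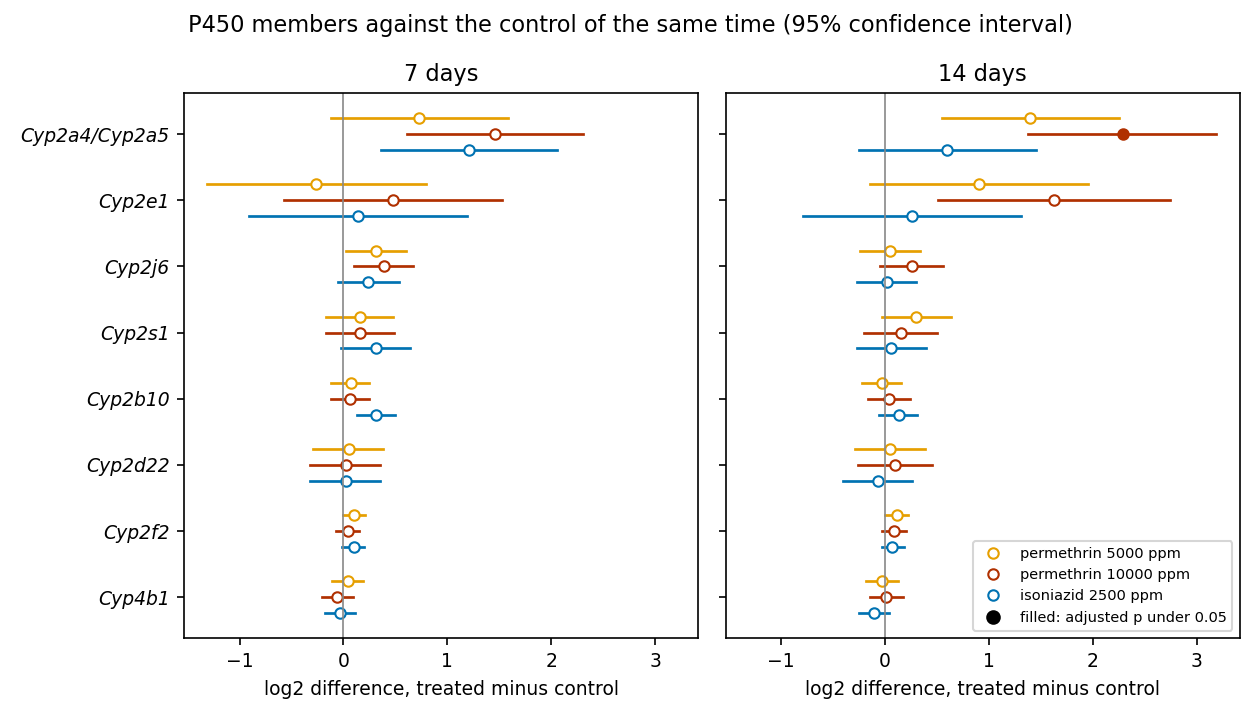
Log2 difference of each readout from the control of the same time (horizontal axis, log2 units), by treatment and time; points are fitted differences, bars their 95% confidence intervals, and filled points passed an adjusted p of 0.05. Cyp2a4/Cyp2a5 at permethrin 10000 ppm, 14 days (2.29) is the filled point, while the points of Cyp2f2, Cyp4b1, Cyp2d22 and Cyp2b10 at permethrin stay near 0.

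Cyp2a4/Cyp2a5 rose at 10000 ppm of permethrin and stood higher in every treated group mean than in its control. Control animals at 7 days had log2 signals of 9.62, 9.35, 9.79, 8.81 and 8.39. Animals given permethrin 10000 ppm for 7 days had 10.38, 10.47, 11.09, 10.45 and 10.87. All of the latter lay above the highest control, in deposited signal 1280 to 2180 against 347 to 859.

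At 14 days the controls had 9.40, 7.13, 9.01, 9.36 and 7.53, and the animals given permethrin 10000 ppm had 10.58, 11.19, 10.38 and 10.94. Again the groups did not overlap, at a deposited signal of 142 to 682 in controls and 1350 to 2720 in treated animals. Controls 2 and 5 were the lowest of all 39 animals, and the controls of this time were more spread (SD 1.08) than the treated animals (SD 0.36). Groups did not overlap for 1.06% of all features at 7 days and for 1.88% at 14 days.

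The difference at 14 days was 2.29 ± 0.45 (SE, n = 4 and 5), a 4.88-fold rise with a 95% confidence interval of 1.38 to 3.19 on the log2 scale (limma, adjusted p = 0.00566). Averaged over both times the difference was 1.87 ± 0.31 (3.66-fold, 95% confidence interval 1.25 to 2.49, limma adjusted p = 0.000208). At 7 days alone it was 1.46 ± 0.42 (2.75-fold, interval 0.61 to 2.31), with 5 of 5 animals above the control mean, but an adjusted p of 0.366 and an unadjusted p of 0.00135. The change of this difference from 7 to 14 days was 0.83 ± 0.61 with an adjusted p of 1, and 0% of all features passed for this change (limma, 293 features at an unadjusted p under 0.05).

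**Figure D2:**
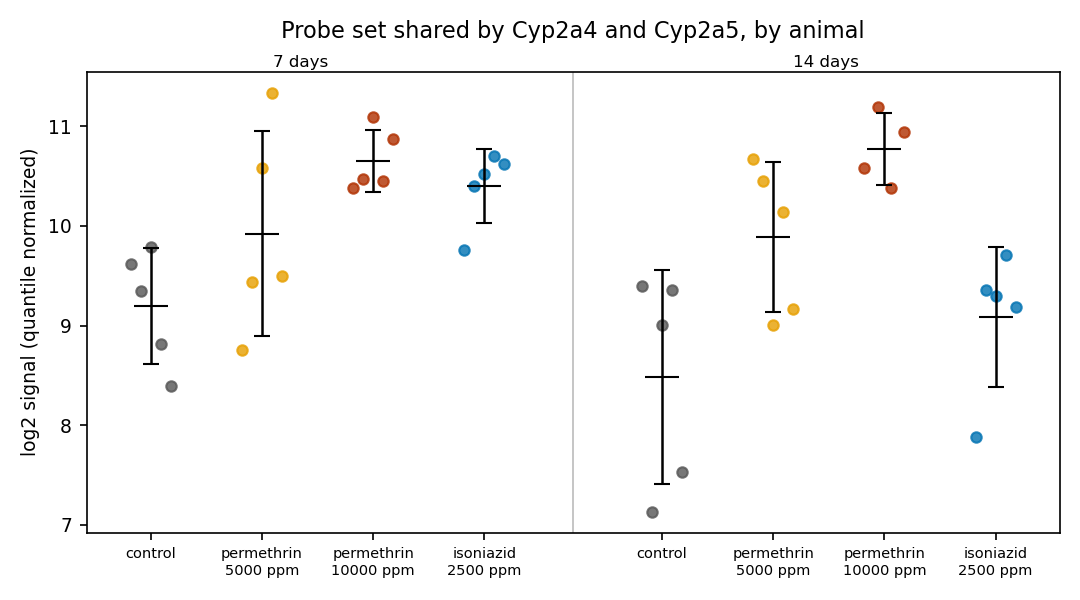
Log2 signal of the probe set shared by Cyp2a4 and Cyp2a5 (vertical axis, log2 units) in each animal by group, with 7 days on the left and 14 days on the right; points are animals, black bars group means and error bars SD. All animals at permethrin 10000 ppm lie at 10.38 or above, and all controls at 9.79 or below.

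At the lower dose the animals overlapped the controls. Permethrin 5000 ppm gave 8.75, 9.44, 10.58, 11.34 and 9.50 at 7 days, and 10.67, 10.45, 9.01, 10.14 and 9.17 at 14 days. At each time some animals reached the range of the higher dose and others lay within the control range. The differences were 0.73 ± 0.42 at 7 days (adjusted p = 1) and 1.40 ± 0.42 at 14 days (2.64-fold, adjusted p = 0.495), and their mean was 1.07 ± 0.30 (2.09-fold, adjusted p = 0.286, unadjusted p = 0.000987). Between the doses, 10000 ppm exceeded 5000 ppm by 0.81 ± 0.31 (1.75-fold, interval 0.19 to 1.43), which did not pass (adjusted p = 0.999, unadjusted p = 0.0123); no readout passed between doses, where 0.00768% of all features did.

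Isoniazid gave 9.76, 10.40, 10.52, 10.70 and 10.62 at 7 days, where 1 animal lay within the control range and 4 above it. The difference was 1.21 ± 0.42 (2.31-fold, interval 0.36 to 2.06, adjusted p = 0.551). At 14 days the isoniazid animals had 7.88, 9.36, 9.30, 9.71 and 9.19, with 4 of 5 inside the control range, and the difference was 0.60 ± 0.42 (1.52-fold, adjusted p = 0.925). The mean of both times was 0.90 ± 0.30 (1.87-fold, adjusted p = 0.242), and the change from 7 to 14 days was -0.61 ± 0.59 with an adjusted p of 1.

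From high to low, the group means of Cyp2a4/Cyp2a5 were 10.77 at permethrin 10000 ppm for 14 days, 10.65 at the same dose for 7 days, 10.40 at isoniazid for 7 days, 9.92 and 9.89 at permethrin 5000 ppm for 7 and 14 days, 9.19 in controls at 7 days, 9.09 at isoniazid for 14 days and 8.49 in controls at 14 days. Neighbours in this order differed by no more than 0.70, beside a pooled SD between animals of 0.71. Neighbours in a sorted list lie close by construction, so this says nothing of groups farther apart. Controls at 14 days were lower than controls at 7 days by 0.70 ± 0.42 (interval -1.56 to 0.15 for 14 minus 7 days, adjusted p = 0.467).

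Club cell, cardiac muscle and adipose scores were also higher beside this readout at 14 days, without passing their tests. The club cell score averaged 8.27 ± 0.93 (SD, n = 5) in controls at 14 days and 9.12 ± 0.91 (SD, n = 4) at permethrin 10000 ppm (exact two-sided permutation p = 0.198, adjusted p = 0.875), and 20 of its 22 markers were higher in treated animals, 1 of them past the threshold. The adipose score averaged 5.30 ± 1.24 and 7.19 ± 1.85 (exact p = 0.111, adjusted p = 0.777), and all 11 adipose markers tested were higher, none past the threshold in the limma fit and 9 at an unadjusted p under 0.05. The cardiac muscle score averaged 7.00 in controls and 8.03 at permethrin 10000 ppm (exact p = 0.167, adjusted p = 0.875), and all 20 of its markers were higher, none past the threshold in the limma fit and 15 at an unadjusted p under 0.05. Over all features in this comparison 54.4% were higher, 0.223% passed and 6.04% had an unadjusted p under 0.05. The markers of a list were read in the same animals, so these counts are not separate observations. At 7 days the animals at permethrin 10000 ppm differed from controls by 0.15 in the club cell score, by 0.34 in the adipose score and by -0.14 in the cardiac muscle score. The higher scores at 14 days were not particular to this dose. Club cell, adipose and cardiac muscle scores were also higher than in controls at permethrin 5000 ppm (by 1, 1.44 and 1.03). The same held at isoniazid (by 0.67, 1.23 and 1.09), and none passed after adjustment. Cyp2a4/Cyp2a5 was likewise higher than in controls in these groups, by 1.40 at permethrin 5000 ppm and by 0.60 at isoniazid, without passing. Controls at 14 days had the lowest mean of all 8 groups in each of these scores. The control with the lowest Cyp2a4/Cyp2a5 signal at 14 days, replicate 2, also had the lowest club cell score (7.19), adipose score (4.28) and cardiac muscle score (5.98) of its group. Control replicate 5, with a signal of 7.53, had low club cell and adipose scores too (7.82 and 4.43). Control replicates 1 and 4, with signals of 9.40 and 9.36, had higher club cell scores (9.26 and 9.23) and adipose scores (6.69 and 6.61). Not every animal followed this order. Permethrin 10000 ppm replicate 4 at 14 days had the lowest of these scores in its group (7.78, 4.68 and 6.73). Its Cyp2a4/Cyp2a5 signal was 10.94. Control replicate 3 had low club cell and adipose scores (7.85 and 4.48) beside a signal of 9.01.

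With the club cell score as a covariate, added after seeing the data, the 14-day difference was 1.96 (adjusted p = 0.0628) and the mean of both times 1.68 (adjusted p = 0.00142). With liver, cardiac muscle and adipose scores as covariates these were 2.05 (adjusted p = 0.0884) and 1.60 (adjusted p = 0.0087). Without the 7 arrays of high Gapdh ratio they were 2.39 (adjusted p = 0.0594) and 1.93 (adjusted p = 0.00243). The 14-day call also ended without control replicate 2 (1.95, adjusted p = 0.0515), without permethrin 10000 ppm replicate 2 (2.15, adjusted p = 0.0633) and with only the compared groups in the fit (2.29, adjusted p = 0.174), while the mean of both times passed in all 33 alternatives run (1.60 to 1.99).

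Over all animals, after subtracting group means, Cyp2a4/Cyp2a5 did not follow any of these scores past the threshold: r was 0.33 with the club cell score (rho 0.35, permutation p = 0.0903, adjusted p = 0.273) and -0.27 with the liver score (adjusted p = 0.288). Without the 2 animals farthest from the median club cell score, that r was 0.52. Liver is a tissue with much Cyp2a5. The liver score averaged 5.09 at permethrin 10000 ppm and 5.94 in controls at 7 days (exact p = 0.175), and 5.56 and 5.47 at 14 days (exact p = 0.825).

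The 3 genes whose signals over the 39 arrays were most like Cyp2a4/Cyp2a5 were Mgst1 (Pearson r 0.72), Pir (0.72) and Gsta4 (0.71). With group means subtracted these correlations were 0.37, 0.43 and 0.39, so much of the likeness lies between groups. Mgst1 and Gsta4, glutathione transferases, are in the list of NRF2 target enzymes described further on.

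Cyp2b10, the CAR target of liver and a major P450 of the mouse airway, did not pass with permethrin at either dose, and its differences were at most 0.07. Controls had 10.68, 10.96, 10.65, 10.79 and 11.10 at 7 days and 10.81, 11.01, 11.00, 11.00 and 11.19 at 14 days. Permethrin 10000 ppm gave 10.75, 10.89, 11.18, 10.79 and 10.89 at 7 days and 10.92, 11.01, 11.11 and 11.13 at 14 days. The animals of these groups are intermixed.

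The Cyp2b10 differences at permethrin were 0.07 ± 0.09 (interval -0.12 to 0.25) and 0.06 ± 0.09 (-0.12 to 0.25) at 7 days for 5000 and 10000 ppm, and -0.03 ± 0.09 (-0.22 to 0.15) and 0.04 ± 0.10 (-0.16 to 0.24) at 14 days. All 3 probe sets of Cyp2b10 gave differences between -0.08 and 0.08 for permethrin. These intervals end at or below 0.25 on the log2 scale, so a rise as large as that of Cyp2a4/Cyp2a5 lies outside them. Cyp2b10 is bright, at the 98.8 percentile of signal, where quantile normalization leaves less room to vary. Over the alternatives run, its difference at permethrin 10000 ppm, 14 days, ran from -0.01 to 0.21.

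With isoniazid, Cyp2b10 had 11.13, 11.02, 11.38, 11.25 and 10.98 at 7 days, with 5 of 5 animals above the control mean but overlapping the controls. The difference was 0.31 ± 0.09 (1.24-fold, interval 0.13 to 0.50), with an unadjusted p of 0.00153 and an adjusted p of 0.339. At 14 days isoniazid gave 10.99, 11.07, 11.25, 11.07 and 11.27, a difference of 0.13 ± 0.09 (adjusted p = 0.925), and the mean of both times was 0.22 ± 0.06 (1.17-fold, adjusted p = 0.141). The 3 probe sets gave 0.31, 0.30 and 0.39 at 7 days and 0.13, 0.09 and 0.07 at 14 days. The clock score, late-day genes minus genes of the opposite phase, was 0.94 at isoniazid and -0.63 in controls at 7 days (exact p = 0.00794, the smallest this design allows, adjusted p = 0.333). Within groups the r of Cyp2b10 with this score was 0.28 and the rho 0.29 (permutation p = 0.123 and 0.105, adjusted p = 0.305 and 0.282). The genes most like Cyp2b10 over the 39 arrays were Epb41l4b (0.70), the clock-output factor Tef (0.70) and Usp54 (0.69), and 0.64, 0.66 and 0.64 with group means subtracted.

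**Figure D3:**
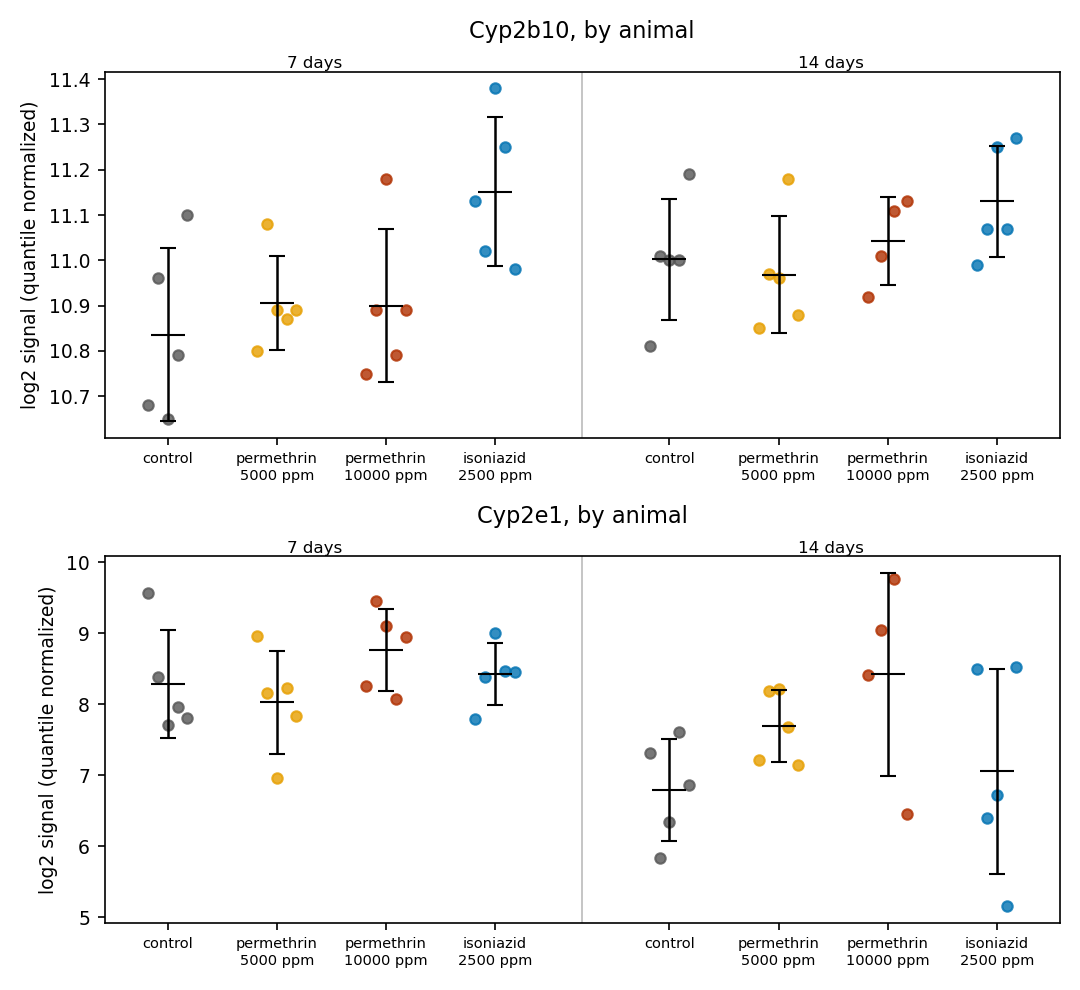
Log2 signal of Cyp2b10 and of Cyp2e1 (vertical axes, log2 units, a scale of its own for each gene) in each animal by group, 7 days on the left and 14 days on the right; points are animals, black bars means and error bars SD. Cyp2b10 animals of all groups lie between 10.65 and 11.38, whereas Cyp2e1 spans 5.16 to 9.77.

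Cyp2e1, which oxidises ethanol, acetone and small solvents, was the readout that varied most between animals of a group. Its pooled within-group SD was 0.88, at the 98.1 percentile of all features tested, followed by Cyp2a4/Cyp2a5 (0.71, percentile 95.8). Controls had 9.56, 8.39, 7.71, 7.96 and 7.81 at 7 days and 7.31, 5.84, 6.35, 7.61 and 6.86 at 14 days. The control groups did not overlap, which held for 3.93% of all features, and the difference of 14 minus 7 days was -1.49 ± 0.52 (interval -2.54 to -0.44, adjusted p = 0.186). No readout passed between the control groups, where 0.115% of all features did.

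With isoniazid, Cyp2e1 had 7.79, 8.39, 9.01, 8.47 and 8.46 at 7 days and 8.49, 6.40, 6.72, 5.16 and 8.52 at 14 days. The animals at 14 days were split widely, from below the lowest control to above the highest. Differences from control were 0.14 ± 0.52 (interval -0.91 to 1.19) and 0.26 ± 0.52 (-0.79 to 1.31), and the mean of both was 0.20 ± 0.37 (-0.54 to 0.94, adjusted p = 0.921). These wide intervals neither show a change of the transcript nor that there was none.

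Permethrin 10000 ppm gave Cyp2e1 signals of 8.26, 9.45, 9.10, 8.07 and 8.95 at 7 days and 8.41, 9.05, 9.77 and 6.45 at 14 days. At 14 days 3 of 4 animals lay above every control, and the difference was 1.63 ± 0.55 (3.09-fold, interval 0.51 to 2.74, unadjusted p = 0.00535, adjusted p = 0.501). This difference depended on single treated animals. Without replicate 4, the low animal, it was 2.29 and passed (adjusted p = 0.0399). Without replicate 1, 2 or 3 it was 1.63, 1.42 or 1.18, and none of these passed. At permethrin 5000 ppm the differences were -0.26 ± 0.52 at 7 days and 0.90 at 14 days, with adjusted p-values that did not pass.

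Adipose markers varied in step with Cyp2e1. After subtracting group means, r between Cyp2e1 and the adipose score was 0.81 over 39 animals (rho 0.75, permutation p = 1e-05, the smallest 100000 permutations can give, adjusted p = 0.00062 over 124 relations). Without the 2 animals farthest from the median score r was 0.72, and it was 0.63 among animals at 7 days and 0.88 at 14 days. Permethrin 10000 ppm replicate 4 at 14 days, low in Cyp2e1, had an adipose score of 4.68 beside 7.51, 9.13 and 7.44 in its group. Controls at 14 days had an adipose score lower than controls at 7 days by 1.85 (14 minus 7 days -1.85, exact two-sided permutation p = 0.0476, adjusted p = 0.5), with 10 of 11 markers lower and none past the threshold. The cardiac muscle score differed between the same controls by -1.50 (8.49 at 7 days and 7.00 at 14 days, exact p = 0.0238, adjusted p = 0.5). All 20 of its markers were lower, and 2 passed in the limma fit, Ldb3 (-1.75 ± 0.35, adjusted p = 0.033) and Myh6, the heart's alpha-myosin (-1.64 ± 0.34, adjusted p = 0.0345). Over all features 53.8% were higher at 14 days between these controls and 0.115% passed.

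With liver, cardiac muscle and adipose scores as covariates, the Cyp2e1 difference at permethrin 10000 ppm, 14 days, was 0.44 (adjusted p = 0.971), and that between controls was -0.26 (adjusted p = 0.736). With the club cell score they were 0.89 and -0.71. Cyp2e1 also followed the cardiac muscle score (r = 0.65, rho 0.62, permutation adjusted p = 0.0124 and 0.0115). Its r with the club cell score was 0.61 (adjusted p = 0.0245) and its rho 0.48 (adjusted p = 0.0535), with an r of 0.22 at 7 days, of 0.75 at 14 days and of 0.42 without the 2 farthest animals. The genes most like Cyp2e1 over the 39 arrays were Ephx2, the soluble epoxide hydrolase (0.88), Plin4, a lipid droplet coat protein (0.87), and Pck1 (0.85), of which Plin4 and Pck1 are in the adipose list. With group means subtracted these were 0.86, 0.86 and 0.80.

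**Figure D4:**
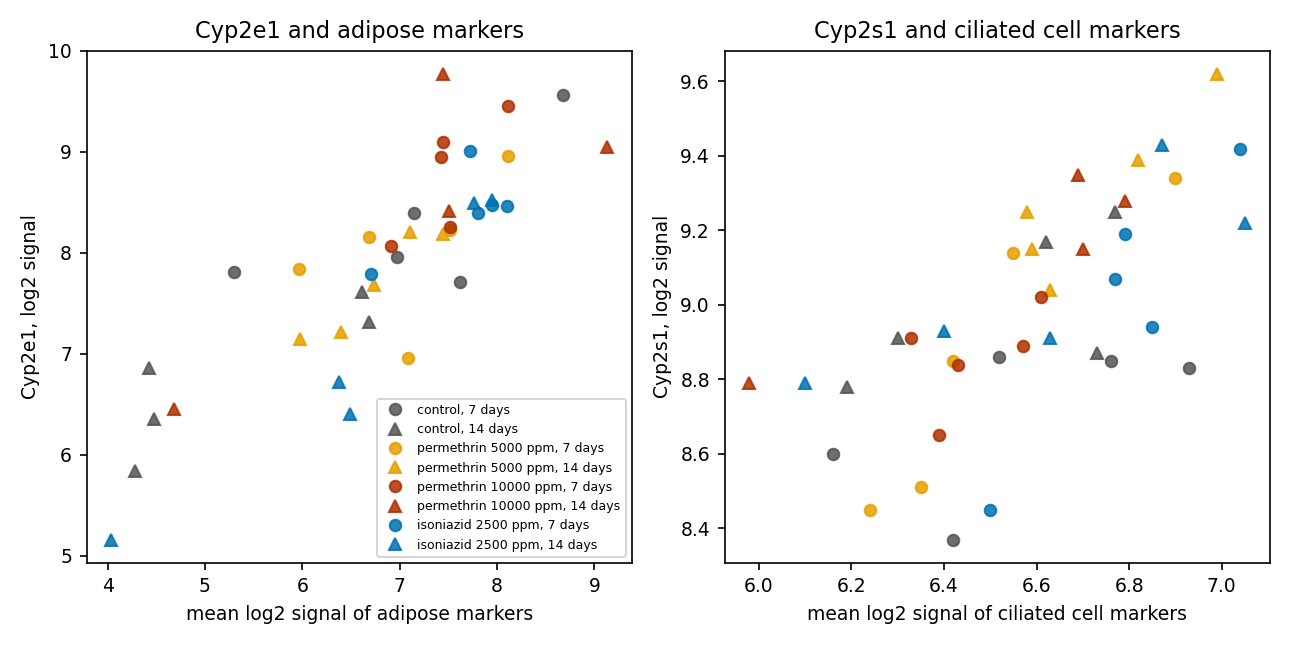
Left, Cyp2e1 log2 signal against the adipose marker score, and right, Cyp2s1 log2 signal against the ciliated cell marker score (log2 units on all axes, 1 point per animal). After subtracting group means, r was 0.81 for the left pair and 0.77 for the right pair over 39 animals.

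Cyp2s1, a P450 of airway and other epithelia, did not pass in any of the 6 comparisons, with differences of 0.06 to 0.31 (intervals between -0.27 and 0.64, smallest adjusted p = 0.786). Animals ran from 8.37 to 9.62, and group means from 8.70 ± 0.21 (SD, n = 5) in controls at 7 days to 9.29 ± 0.22 (n = 5) at permethrin 5000 ppm for 14 days. All 6 differences were positive, the largest with isoniazid at 7 days (0.31, unadjusted p = 0.0628) and with permethrin 5000 ppm at 14 days (0.30).

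Ciliated cell markers went with Cyp2s1 from animal to animal. After subtracting group means, r was 0.77 with the ciliated cell score (rho 0.80, permutation p = 1e-05, adjusted p = 0.00062), 0.75 without the 2 farthest animals, 0.77 at 7 days and 0.82 at 14 days. Cyp2s1 was lower where the endothelial score was higher (r = -0.59, rho -0.58, adjusted p = 0.0031 and 0.0115; r -0.53 without the 2 farthest animals), and it went with the Actb 3' to 5' ratio (r = 0.60, rho 0.60, adjusted p = 0.00207 and 0.00909) and the Gapdh ratio (r = 0.52, rho 0.52, adjusted p = 0.0124 and 0.0301), which mark RNA quality. On the arrays of lower Gapdh ratio the r of Cyp2s1 with the ciliated cell score was 0.75. The genes most like it over the 39 arrays were Elapor1 (0.88), Cfap126, a ciliary protein (0.84), and Tbx1 (0.83), and 0.85, 0.81 and 0.79 with group means subtracted. At isoniazid, 7 days, the ciliated cell score was 6.79 and in controls 6.56 (exact p = 0.19, adjusted p = 0.875).

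Cyp2f2, which turns naphthalene into toxic products in club cells, and Cyp4b1, which does so with 4-ipomeanol, varied little between animals after quantile normalization. Cyp2f2 had group means from 12.49 to 12.61 and animals from 12.41 to 12.73. Its within-group SD of 0.07 lay at the 0.3 percentile of all features, and that of Cyp4b1 (0.11) at the 2.5 percentile. The probe sets of Cyp2f2 and Cyp4b1 are among the brightest, at the 99.9 and 99.6 percentile of signal. Quantile normalization leaves the top ranks little room to vary, so these small SDs cannot be read apart from that step. Cyp2f2 differences from control were 0.04 to 0.11 in the 6 comparisons (intervals between -0.07 and 0.22, smallest adjusted p = 0.807).

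These values changed with the scaling. On the deposited scaling its signal ran from 4480 to 11800, and its differences at 14 days were 0.45 ± 0.14 at permethrin 5000 ppm, 0.43 ± 0.15 at 10000 ppm and 0.44 ± 0.14 at isoniazid (adjusted p = 0.532, 0.498 and 0.415). At 7 days they were 0.13, 0.10 and 0.15. No scaling gave a call, and the median of all features moved by at most 0.06. The genes most like Cyp2f2 were Sec23b (0.63), Ugdh (0.60) and Reep6 (0.59), and 0.55, 0.64 and 0.52 with group means subtracted.

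Cyp4b1 had group means from 11.81 to 11.94 and animals from 11.60 to 12.12. Differences ran from -0.11 to 0.04 (intervals between -0.25 and 0.19), without a call, and from 0.02 to 0.22 on the deposited scaling, so no direction can be given. Cyp4b1 went with the endothelial score (r = 0.59, rho 0.55, adjusted p = 0.0119; 0.24 at 7 days and 0.79 at 14 days) and against the adipose score (r = -0.57, rho -0.58, adjusted p = 0.0132 and 0.0115) and the ciliated cell score (r = -0.50, rho -0.52, adjusted p = 0.0377 and 0.0277). Its r with the club cell score was -0.49 (adjusted p = 0.0642) and its rho -0.55 (adjusted p = 0.0115), whereas Cyp2f2 had an r of 0.08 and a rho of 0.05 with that score (adjusted p = 0.866 and 0.945). Its most similar genes were Il6st (0.68), Tspan2 (0.67) and Hilpda (0.64), and 0.69, 0.70 and 0.65 with group means subtracted.

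Cyp2j6, an epoxygenase of arachidonic acid, had higher signals at permethrin 10000 ppm without passing. Controls at 7 days had 5.14, 4.93, 5.53, 5.42 and 5.41, and animals at 10000 ppm had 5.57, 5.59, 6.03, 5.81 and 5.36. Of the treated animals, 4 of 5 lay above every control. At 14 days the controls had 5.74, 5.56, 5.28, 5.45 and 5.32, and the treated animals had 5.72, 5.82, 5.79 and 5.59. The difference was 0.39 ± 0.14 at 7 days (1.31-fold, interval 0.10 to 0.67, adjusted p = 1), 0.26 ± 0.15 at 14 days (adjusted p = 0.905) and 0.32 ± 0.10 for both (1.25-fold, unadjusted p = 0.00373, adjusted p = 0.304). A dimmer probe set of Cyp2j6 gave 0.03, 0.02 and 0.03 in the same comparisons, so its 2 probe sets disagree. The genes most like Cyp2j6 were Blvrb, a biliverdin reductase (0.69), Gtf2f2 (0.67) and Pon3 (0.65), and 0.61, 0.66 and 0.52 with group means subtracted.

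Cyp2d22 had group means from 8.17 to 8.35 and animals from 7.59 to 8.75. Differences ran from -0.07 to 0.10 (intervals between -0.41 and 0.45), and its other probe set gave -0.21 to 0.07. Within groups Cyp2d22 went with Cyp2b10 (r = 0.54, adjusted p = 0.0377, rho 0.50, adjusted p = 0.0535; r was 0.67 at 7 days and 0.25 at 14 days), although the genes most like it over all arrays were Xpa (0.62), Kdsr (0.55) and Mta3 (0.55), and 0.64, 0.58 and 0.54 with group means subtracted. In all, 12 of the 124 relations of the readouts with scores and with each other had an adjusted p of r under 0.05.

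The other P450s did not add a call. Of 64 further P450s of families 2 to 4, 43 had a probe set of their own, 16 were bright enough to be tested, and none passed in any of the 14 comparisons (limma, 0 to 4 per comparison at an unadjusted p under 0.05). The same held for 11 of 22 P450s of sterol, steroid, retinoid and vitamin D metabolism that were tested (0 to 2 unadjusted) and for 17 of 21 nuclear receptors and factors that control P450 genes (0 to 2 unadjusted). Large differences that did not pass were those of Cyp3a11 with isoniazid over both times (-1.52 ± 0.47, adjusted p = 0.192) and of Cyp4a12a with permethrin 10000 ppm at 14 days (2.50 ± 0.79, adjusted p = 0.422), both named after their values were seen.

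A few enzymes that work beside P450s passed the test. Of 14 tested P450 partners (haem synthesis and breakdown, electron carriers, epoxide hydrolases), 1, 2 and 1 rose at 7 days and 1, 1 and 1 at 14 days for permethrin 5000 ppm, permethrin 10000 ppm and isoniazid, and none fell. Ephx1, the microsomal epoxide hydrolase that opens epoxides made by P450s, rose 1.91-fold at permethrin 10000 ppm, 7 days (0.93 ± 0.11, adjusted p = 7.43e-07). It also rose by 0.65 at permethrin 5000 ppm at 7 days (adjusted p = 0.00111) and by 0.51 and 0.63 at 14 days (adjusted p = 0.0286 and 0.00244). Hmox1, the haem oxygenase, rose by 0.78 at permethrin 10000 ppm, 7 days (adjusted p = 0.011).

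Alas1 encodes the first and rate-limiting enzyme of haem synthesis outside the red cell line. It was higher with isoniazid, 1.98-fold at 7 days (0.99 ± 0.13, adjusted p = 0.000103) and by 0.67 at 14 days (adjusted p = 0.0352). Over both times Fdx1, the mitochondrial electron carrier ferredoxin, rose by 0.30 with isoniazid (adjusted p = 0.0303), and Pgrmc1, a haem-binding partner of P450s, rose by 0.22 with permethrin 10000 ppm (adjusted p = 0.0157). None of the 8 P450 readouts passed with isoniazid beside these. The clock score also differed from control with isoniazid, by 1.57 at 7 days and 1.27 at 14 days (exact permutation adjusted p = 0.333 and 0.5). Whether the Alas1 difference goes with the clock score was not tested. Over all features, the clock score as a covariate took the isoniazid calls from 6 to 1 at 7 days. At 14 days they went from 4 to 2, and over both times from 51 to 8. Other settings moved these counts too. Liver, cardiac muscle and adipose scores as covariates gave 1 at 7 days and 14 over both times. Centring each array on its median gave 2 and 18, the club cell score as a covariate 7 and 46, and array weights 72 and 63. What moves the isoniazid calls was not tested.

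NRF2 target enzymes, the detoxification genes that many electrophiles raise, rose with permethrin in the same lungs. Of 23 tested, 10 and 17 passed upward at 7 days and 10 and 15 at 14 days for 5000 and 10000 ppm, and none fell. This list was written with earlier results of these data in view, so its direction is not independent evidence. Their median differences were 0.50, 0.84, 0.65 and 0.90, beside medians of all features of -0.01 to 0.02. At 10000 ppm, 14 days, Srxn1 rose by 1.68 ± 0.15 (3.21-fold), Gsta2 by 2.21 ± 0.23 (4.63-fold), Txnrd1 by 1.38 ± 0.15 (2.61-fold) and Aldh3a1 by 2.58 ± 0.30 (5.97-fold), with adjusted p-values of at most 1.24e-06. With isoniazid none passed (limma, 4 unadjusted at 7 days and 3 at 14 days), with medians of 0.16 and 0.05. Srxn1 was also the feature that passed between the doses (0.69 ± 0.10, adjusted p = 0.000852).

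Clock-controlled genes passed with isoniazid over both times: of 10 late-day genes tested, Tef rose by 0.67 ± 0.13 (adjusted p = 0.0112) and Per3 by 1.05 (adjusted p = 0.0204), and of 4 genes of the opposite phase Npas2 changed by -1.13 (adjusted p = 0.0361). No source used here gives the hour at which lungs were taken. At permethrin 10000 ppm the clock score was also higher than in controls at 7 days, by 1.14 (exact permutation p = 0.0397, adjusted p = 0.5). At 14 days it was higher by 0.05. With the clock score as a covariate, added after seeing the data, the permethrin 10000 ppm difference of Cyp2a4/Cyp2a5 over both times was 1.83 (adjusted p = 0.000971). In that fit it was 1.38 at 7 days, which did not pass, and 2.28 at 14 days (adjusted p = 0.00741).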

How the data were processed

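Lung RNA of 39 mice was hybridized to Affymetrix arrays after labelling from the 3' end, per the labels' protocols. The authors deposited linear signal intensity for each probe set, made with MAS5 according to the submitters' processing notes (version not given in the sources used here). Since the medians of the arrays spanned 17.4 to 26.2, a 1.51-fold range that exceeds a preset limit of 1.5, log2 values (no pseudocount) were quantile normalized, which removes changes shared by most genes. Of 45101 probe sets, 64 are controls, 34945 carry 1 symbol, 932 several and 9160 none. Each symbol was represented by its brightest own probe set, and 13021 of 18194 features were tested, those whose mean log2 value reached 3.43 (10.8 in signal units, the upper 60% of probe sets).

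A model with 8 group means was fitted by limma 3.58.1 (eBayes with trend) under R 4.3.3, using the data.table package, version 1.17.8, with 14 two-sided comparisons, each adjusted by Benjamini-Hochberg at 0.05, and was tested on simulated data. Animals are the replicates. Scores are mean log2 signals of marker lists, compared by exact permutation tests (84 tests) and related to the readouts by permutation within groups. Sequences were read with Python 3.11.15 and Biopython 1.88, and plots drawn with matplotlib 3.10.9. The members and gene lists were chosen with earlier results of these data known. All members are named; of other lists, up to 4 genes past the threshold with the smallest p, and for each member the 3 genes most like it.

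Alternatives were the deposited scaling, centring on the median, a pseudocount of 8, other filters (none, or the upper 40%), every probe set or the mean of a gene's probe sets, only the groups compared, replicate number as a block, array weights, leaving out arrays of high Gapdh ratio or each animal, and marker scores as covariates.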

Additional observations from a re-analysis of the deposited data

Results flagged for a closer look

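Of 64 tests for a far-off animal (8 readouts in 8 groups), 1 found an animal that stood apart: Cyp2a4/Cyp2a5 in isoniazid replicate 1 at 14 days, at a log2 signal of 7.88, with the nearest animal of its group at 9.19. Its gap was 0.71 of the group's range (n = 5). Chance gives such a gap in about 1 of 20 groups.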

How the results depend on the processing

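The alternatives gave 3216 differences of single readouts, of which 56 had passed in the main fit. Of these 56, 6 no longer passed, all of them Cyp2a4/Cyp2a5 at permethrin 10000 ppm, 14 days. Of the others, 2 passed newly. The 3208 that kept their side of the threshold were mostly uncalled differences, so their number says little about the calls. No called difference reversed, and 207 uncalled values changed sign. Of 402 counts of readouts called, most of them 0, 394 were as reported. The number of readouts called at permethrin 10000 ppm, 7 days, was 0 and became 1 with only the groups compared in the fit (Cyp2a4/Cyp2a5, 1.46, adjusted p = 0.0248). At 14 days it was 1 and became 0 with only the groups compared, without arrays of high Gapdh ratio, with liver, cardiac muscle and adipose scores and with the club cell score as covariates, and ranged from 0 to 2 on leaving out each animal. Cyp2a4/Cyp2a5 at 14 days passed in 17 of 23 alternatives (1.95 to 2.52, adjusted p 0.00301 to 0.174). Replicate numbers did not pair the animals: same-numbered animals of treated and control groups correlated between -0.34 and 0.27 in their deviations, 8 of 29 pairs above 0.1 and 7 best with their own number. With replicate number as a block, 1 readout was called at permethrin 10000 ppm, 14 days (Cyp2a4/Cyp2a5, 2.20, adjusted p = 0.0102), 1 over both times (1.83, adjusted p = 0.000331), and 0 in the other comparisons. Over all features, the 29 calls at permethrin 10000 ppm, 14 days, became 9 with only the groups compared, 16 with the tissue scores, 46 with every probe set and 72 with array weights, and the 66 over both times became 131 with array weights. The number of animals per group limits the precision.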
